A study of Mus musculus with 7 samples.

Results

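The carboxylesterase 1 cluster is a run of sister genes on mouse chromosome 8, and 6 of them, Ces1b, Ces1c, Ces1d, Ces1e, Ces1f and Ces1g, had a row among the 12151 genes listed for these libraries. They were picked by symbol, and the family itself was chosen from earlier ALAS1/2-KO against WT results of the same libraries, so the member differences are a description that supports no inference. The annotation holds 8 Ces1 genes there, and Ces1a and Ces1h were not analysed here. Hepatocytes isolated from mouse liver were profiled by RNA sequencing in 4 ALAS1/2-KO and 3 wild-type (WT) libraries. The ALAS1/2-KO group carried a conditional Alas1 allele in which Cre can be induced to delete exons 4 to 5, was labelled as treated with tamoxifen, and had Alas2 lowered by injected siRNA joined to GalNAc, a sugar that hepatocytes take up. The WT libraries carry the treatment label "non". Whether the WT mice also carried the conditional allele or received siRNA is not stated. Effects of the allele, of tamoxifen and of siRNA cannot be told apart. The sources used here do not give the promoter behind Cre or the strain, sex and age of the animals. Alas1 and Alas2 encode the enzymes that start heme synthesis.

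Carboxylesterases are serine hydrolases that split ester, amide and thioester bonds. In liver most of them sit in the lumen of the endoplasmic reticulum, where they activate or clear ester drugs and hydrolyse stored neutral lipids. Mice carry a tandem array of Ces1 copies where humans rely chiefly on CES1, and the copies differ in where the protein goes and in the lipids they handle. Ces1c is the secreted esterase of mouse plasma. Ces1d is the triacylglycerol hydrolase that frees stored triglyceride for lipoprotein secretion. Ces1g is a liver lipase whose loss in mice raises lipid levels, and Ces1e is egasyn, which holds beta-glucuronidase in the endoplasmic reticulum.

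The libraries held 27933939 to 30195635 listed reads in ALAS1/2-KO and 22916097 to 34048680 in WT, and values are in CPM, reads scaled to a common library size by the authors. Alas2 stood at 0.44 ± 0.258 CPM in ALAS1/2-KO and 11.3 ± 5.18 CPM in WT (SD, n = 4 and 3). Alas1, counted over the whole gene, stood at 322 ± 31.7 CPM in ALAS1/2-KO and 209 ± 109 CPM in WT, which does not check the exon deletion. WT replicate 3 was low for Alas1, at 83.5 CPM beside 280 and 265 CPM in WT replicates 1 and 2, and the log2 difference was 0.80 with it and 0.24 without it. Of 10 hepatocyte markers, 9 were listed, and they summed to 73756 to 79482 CPM in ALAS1/2-KO and 113081 to 120515 CPM in WT. Albumin (Alb), the most abundant of them, stood at 53410 CPM in ALAS1/2-KO and 97900 CPM in WT (limma adjusted p = 0.00606). Alb made up most of these sums, so they do not show how the other hepatocyte markers differed. At a limma adjusted p under 0.05, 1 of the 9 was lower, namely Alb, and 0 were higher. Among all genes tested, 2.19% were lower and 2.91% higher by that rule. Mitochondrial genes took 16.8 to 27.3% of listed reads in ALAS1/2-KO and 31.9 to 43.2% in WT. ALAS1/2-KO replicate 1 stood apart from the other ALAS1/2-KO libraries, with the lowest mitochondrial share and the lowest sums of endothelial (63.0 CPM), macrophage (179 CPM) and stellate markers (41.4 CPM). All 8 endothelial markers were listed and summed to 63.0 to 274 CPM in ALAS1/2-KO and 264 to 320 CPM in WT. All 8 macrophage markers summed to 179 to 1151 CPM in ALAS1/2-KO and 657 to 949 CPM in WT, and 7 of 8 stellate markers to 41.4 to 200 CPM in ALAS1/2-KO and 180 to 324 CPM in WT. The listed markers of bile duct cells (2 of 6), lymphocytes (3 of 7) and red cell precursors (4 of 6) summed to 2.72 to 5.35, 5.9 to 28.6 and 2.75 to 7.39 CPM in ALAS1/2-KO, against 12.1 to 21.1, 22.4 to 34.8 and 11.3 to 41.3 CPM in WT. By the limma rule above, 1 listed marker was lower in each of these types, namely Spp1, Cd79a and Hbb-bt (limma adjusted p = 0.0076, 0.0335 and 0.0483). They averaged 2.18, 0.568 and 0.348 CPM in ALAS1/2-KO, against 13.9, 2.61 and 2.07 CPM in WT. No marker of these types was called higher, and no endothelial, macrophage or stellate marker was called. None of the listed markers was at 0 in any library, and the part of other cells in the results below was not tested.

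All 6 members lie on the minus strand of chromosome 8 in mm10, between 93056728 and 93337308, a span of 281 kb. Promoter windows from RefSeq (GRCm38.p6, the build behind mm10), running from 250 bases before to 50 after an annotated start, were found for 4 members, and Ces1d and Ces1f were not in that table. They are shown so that copies whose levels differed alike or apart can be set beside their upstream sequence. Capitals mark runs of at least 12 bases that Ces1b and Ces1c share exactly, and the windows of Ces1e and Ces1g, with no capitals, stand beside them for contrast.
Ces1b, chr8:93079968-93080267, minus strand: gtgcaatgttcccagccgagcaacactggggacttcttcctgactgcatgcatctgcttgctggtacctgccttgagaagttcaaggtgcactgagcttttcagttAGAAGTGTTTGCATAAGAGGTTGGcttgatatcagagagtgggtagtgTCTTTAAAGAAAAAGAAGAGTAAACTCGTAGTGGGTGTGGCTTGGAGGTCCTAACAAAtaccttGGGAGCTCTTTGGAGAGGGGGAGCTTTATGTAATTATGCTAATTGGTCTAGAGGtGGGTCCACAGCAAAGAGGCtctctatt
Ces1c, chr8:93131234-93131533, minus strand: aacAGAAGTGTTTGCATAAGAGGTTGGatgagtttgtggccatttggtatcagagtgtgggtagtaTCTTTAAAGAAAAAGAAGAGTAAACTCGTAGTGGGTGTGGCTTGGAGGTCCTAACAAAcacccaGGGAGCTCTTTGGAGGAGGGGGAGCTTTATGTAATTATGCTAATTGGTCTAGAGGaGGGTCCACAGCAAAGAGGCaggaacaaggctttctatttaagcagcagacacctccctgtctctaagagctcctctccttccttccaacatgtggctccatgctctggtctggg
Ces1e, chr8:93229570-93229869, minus strand: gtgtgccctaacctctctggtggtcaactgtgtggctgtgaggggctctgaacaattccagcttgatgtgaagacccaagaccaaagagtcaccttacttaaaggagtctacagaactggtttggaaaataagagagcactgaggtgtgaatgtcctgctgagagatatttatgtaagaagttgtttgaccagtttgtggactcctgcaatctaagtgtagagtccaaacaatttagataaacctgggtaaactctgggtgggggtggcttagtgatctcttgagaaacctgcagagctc
Ces1g, chr8:93337160-93337459, minus strand: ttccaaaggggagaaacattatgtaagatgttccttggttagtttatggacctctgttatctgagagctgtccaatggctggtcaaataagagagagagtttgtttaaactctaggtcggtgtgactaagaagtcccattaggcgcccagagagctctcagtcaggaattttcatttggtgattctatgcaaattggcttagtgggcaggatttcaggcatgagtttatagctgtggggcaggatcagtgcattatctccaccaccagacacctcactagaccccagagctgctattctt

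The shared blocks covered 155 of the 300 bases of the Ces1b window and 156 of the Ces1c window, with a longest identical run of 58 bases. That run began at base 155 of the Ces1b window and base 67 of the Ces1c window, because the annotated starts are offset. The other pairs of windows had no identical run longer than 11 bases. Each window was searched on both strands for the TATA box, written TATAAA, and for the CCAAT box. The search also covered the nuclear receptor motif AGGTCA and the motif of HNF4, written CAAAGTCCA. Further motifs were that of the liver factor HNF1, GTTAAT, that of STAT factors, TTCNNNGAA, and the antioxidant response element, TGACNNNGC. No matches overlapped. CCAAT was found in 3 of the 4 windows, Ces1b, Ces1c and Ces1g, and in 37.4% of all 32851 promoter windows. TATAAA was found in the Ces1g window, on the reverse strand, and in 13.6% of all windows. The other motifs, present in 16.3, 0.475, 7.1, 8.3 and 12.4% of all windows in the order named, were in none of the 4.

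The secreted member made up most of the Ces1 signal, and Ces1d came next in ALAS1/2-KO. Ces1c, at chromosome 8 from 93099015 to 93131283, had 3843, 3852, 4668 and 4300 CPM in ALAS1/2-KO replicates 1 to 4 and 2533, 2932 and 2938 CPM in WT replicates 1 to 3. Every ALAS1/2-KO library lay above every WT library. The means were 4166 ± 397 CPM in ALAS1/2-KO and 2801 ± 232 CPM in WT (SD, n = 4 and 3), a log2 difference of 0.57 (SE 0.12), or 1.49-fold. Ces1c ranked 31 among all listed genes by mean CPM.

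**Figure D1:**
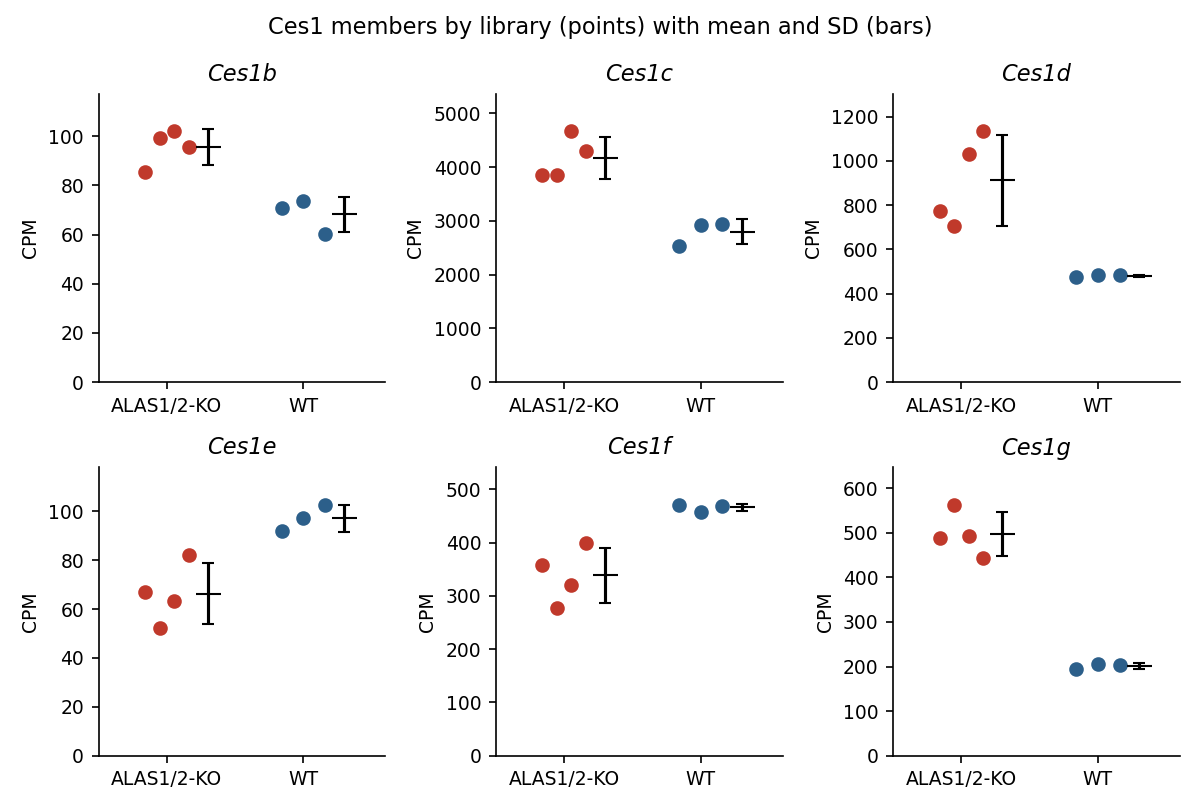
CPM of each Ces1 member in every library (points), with ALAS1/2-KO left of WT and the mean and SD as bars beside them. The groups do not overlap for any member, with Ces1b, Ces1c, Ces1d and Ces1g above WT and Ces1e and Ces1f below it.

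Among the more abundant liver enzymes, Ces1d and Ces1g were higher in ALAS1/2-KO and Ces1f was lower. Ces1d (93166068 to 93197838) had 774, 705, 1033 and 1135 CPM in ALAS1/2-KO replicates 1 to 4, against 473, 483 and 485 CPM in WT replicates 1 to 3. Its WT libraries were almost level and its ALAS1/2-KO libraries were spread over 0.69 on the log2 scale, with replicates 3 and 4 above replicates 1 and 2. The means were 912 ± 205 CPM in ALAS1/2-KO and 480 ± 5.98 CPM in WT, a log2 difference of 0.90 (SE 0.17), or 1.86-fold.

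Ces1g (93302369 to 93337308) had 489, 563, 493 and 444 CPM in ALAS1/2-KO replicates 1 to 4 and 195, 206 and 203 CPM in WT replicates 1 to 3. The lowest ALAS1/2-KO library stood 1.11 above the highest WT library on the log2 scale, the widest gap of the 6 members. Means were 497 ± 49.2 CPM in ALAS1/2-KO and 201 ± 5.78 CPM in WT, a log2 difference of 1.30 (SE 0.11), or 2.46-fold. Replicate 4 was the highest ALAS1/2-KO library for Ces1d and the lowest for Ces1g.

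Ces1f (93256236 to 93279747) had 359, 276, 320 and 399 CPM in ALAS1/2-KO replicates 1 to 4 and 471, 458 and 468 CPM in WT replicates 1 to 3. All ALAS1/2-KO libraries lay below the WT libraries, with replicate 2 lowest. The means were 338 ± 52.4 CPM in ALAS1/2-KO and 466 ± 6.73 CPM in WT, a log2 difference of -0.47 (SE 0.13), so WT was 1.39-fold higher.

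Ces1e, the egasyn gene next to Ces1f (93201218 to 93229619), had the same order of ALAS1/2-KO libraries. It had 67.2, 52.3, 63.4 and 82.3 CPM in ALAS1/2-KO replicates 1 to 4 and 91.8, 97.1 and 103 CPM in WT replicates 1 to 3. The groups did not overlap, and replicate 2 was again the lowest ALAS1/2-KO library and replicate 4 the highest. The means were 66.3 ± 12.4 CPM in ALAS1/2-KO and 97.2 ± 5.49 CPM in WT, a log2 difference of -0.57 (SE 0.15). Gusb, the beta-glucuronidase that egasyn holds, stood at 29.3 CPM in ALAS1/2-KO and 26.2 CPM in WT and did not pass the fit across all genes (limma adjusted p = 0.671).

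Ces1b, the outermost of the analysed members on its side (93056728 to 93080017), was the least abundant member in WT per length of transcript. It had 85.4, 99.3, 102 and 95.5 CPM in ALAS1/2-KO replicates 1 to 4 and 70.7, 73.7 and 60.2 CPM in WT replicates 1 to 3. The groups did not overlap. The means were 95.6 ± 7.3 CPM in ALAS1/2-KO and 68.2 ± 7.06 CPM in WT, a log2 difference of 0.49 (SE 0.11), or 1.4-fold.

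A linear model (limma) was fitted to the log2 values of 12105 genes, and a two-sided Benjamini-Hochberg adjusted p under 0.05 counted as a call. As a count only, it called 4 of the 6 members higher, namely Ces1b, Ces1c, Ces1d and Ces1g, where 2.91% of all genes were called higher, and 0 of the 6 lower, where 2.19% of all genes were called lower. The groups did not overlap for 4 members higher in ALAS1/2-KO, against 11.3% of all genes in that direction, and for 2 members lower, against 11.4%. The family was chosen with this contrast known, so nothing is read from these counts. The median log2 difference was 0.53 over the 6 members and -0.02 over all genes tested. Higher calls among the members numbered 4, 2, 1 and 1 without ALAS1/2-KO replicates 1, 2, 3 and 4, and 1 in each fit without WT replicate 1, 2 or 3. Higher calls among all genes changed as well, from 352 to 387, 221, 160 and 115 without ALAS1/2-KO replicates 1 to 4. They numbered 140, 37 and 169 without WT replicates 1 to 3. Lower calls among the members numbered 1 without ALAS1/2-KO replicate 4 and 0 in the other 6 such fits. Among all genes, lower calls ran from 19 to 415 in these fits, against 265 with all libraries. Without ALAS1/2-KO replicate 1, the library that stood apart, the log2 differences were 0.54 for Ces1b, 0.61 for Ces1c, 0.97 for Ces1d, -0.58 for Ces1e, -0.51 for Ces1f and 1.31 for Ces1g. With the replicate number as a block in the fit, in which ALAS1/2-KO replicate 4 has no partner and so carries no weight, 1 member was called.

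The 2 lower members sat next to each other inside the array, with higher members on both sides. In genomic order the log2 differences were 0.49, 0.57, 0.90, -0.57, -0.47 and 1.30 for Ces1b, Ces1c, Ces1d, Ces1e, Ces1f and Ces1g. The authors' scaled library sizes were 1.07 to 1.18 times the listed reads in ALAS1/2-KO and 0.801 to 1.003 times in WT. The separation of the groups for Ces1e and Ces1f depended on which scaling was used. With CPM rescaled to the listed reads, which moved the median of all genes to 0.32, Ces1e spanned 56.8 to 88 CPM in ALAS1/2-KO and 76.8 to 103 CPM in WT, and Ces1f 300.1 to 426 CPM in ALAS1/2-KO and 367 to 470 CPM in WT, so that both overlapped. The log2 differences were then -0.23 for Ces1e and -0.14 for Ces1f, both below the shifted median. Ces1b, Ces1c, Ces1d and Ces1g did not overlap under that scaling either.

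**Figure D2:**
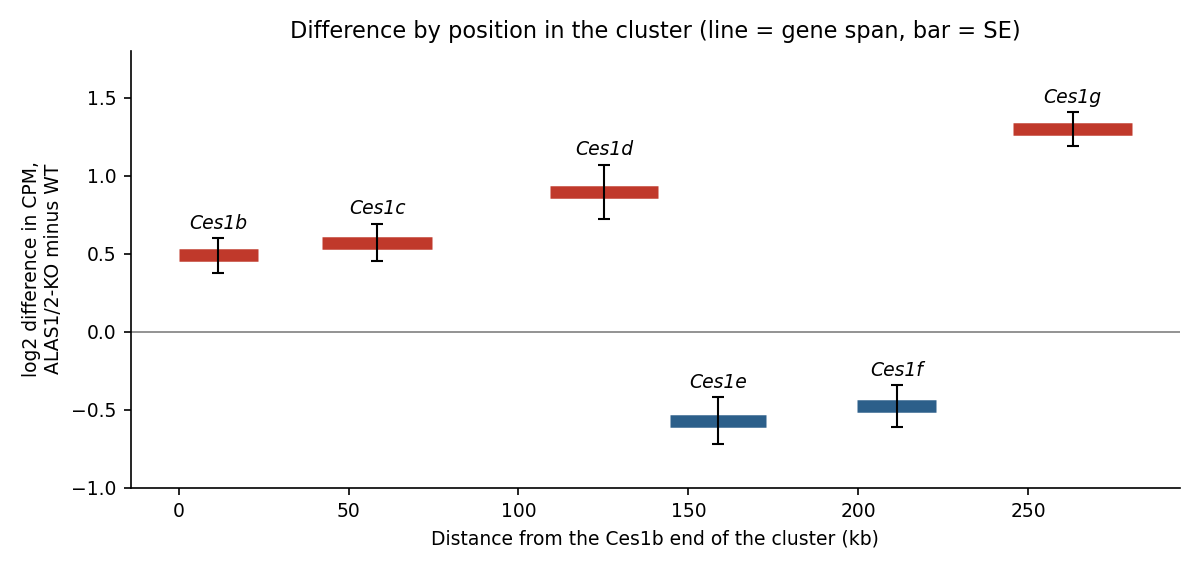
Log2 difference in CPM (ALAS1/2-KO minus WT, bar = SE) of each Ces1 member against its distance in kb from the Ces1b end of the analysed members, with each line as long as the gene. Ces1e (-0.57) and Ces1f (-0.47) lie below zero between Ces1d (0.90) and Ces1g (1.30), and with CPM rescaled to listed reads they were -0.23 and -0.14.

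Ratios between members within a library do not depend on the scaling. The Ces1g to Ces1f ratio was 1.36, 2.04, 1.54 and 1.11 in ALAS1/2-KO replicates 1 to 4 and 0.413, 0.45 and 0.433 in WT replicates 1 to 3. Ces1g thus had more reads than Ces1f in every ALAS1/2-KO library and fewer in every WT library. The Ces1d to Ces1f ratio was 2.16, 2.55, 3.23 and 2.85 in ALAS1/2-KO replicates 1 to 4 and 1.00, 1.05 and 1.03 in WT replicates 1 to 3. The Ces1d to Ces1e ratio was 11.5, 13.5, 16.3 and 13.8 in ALAS1/2-KO and 5.16, 4.97 and 4.72 in WT. Of the 15 pairs of members, 10 had ratios that did not overlap between the groups, including all 8 pairs of Ces1e or Ces1f with another member outside that pair, which follows from the members' own separation and adds no separate evidence. The 5 pairs that overlapped were Ces1b with Ces1c, Ces1b with Ces1d, Ces1c with Ces1d, Ces1d with Ces1g, and Ces1e with Ces1f.

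Summed over the 6 members, the cluster reached 6075 ± 576 CPM in ALAS1/2-KO and 4114 ± 242 CPM in WT (SD, n = 4 and 3), with 5548 to 6679 CPM in ALAS1/2-KO libraries and 3835 to 4257 CPM in WT libraries. That was 0.67% of listed reads in ALAS1/2-KO and 0.363% in WT. Ces1c held a like share of the sum in both, at 68.6% ± 1.45 in ALAS1/2-KO and 68 ± 1.71% in WT. The remainder was divided differently. Ces1f took 5.58% ± 0.815 in ALAS1/2-KO and 11.4% ± 0.813 in WT, and Ces1e 1.09% ± 0.17 in ALAS1/2-KO and 2.36% ± 0.0694 in WT. Ces1g took 8.28% ± 1.47 in ALAS1/2-KO and 4.9% ± 0.165 in WT, and Ces1d 14.9% ± 2.13 in ALAS1/2-KO and 11.7% ± 0.563 in WT. Ces1b took 1.58% ± 0.142 in ALAS1/2-KO and 1.66% ± 0.223 in WT.

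**Figure D3:**
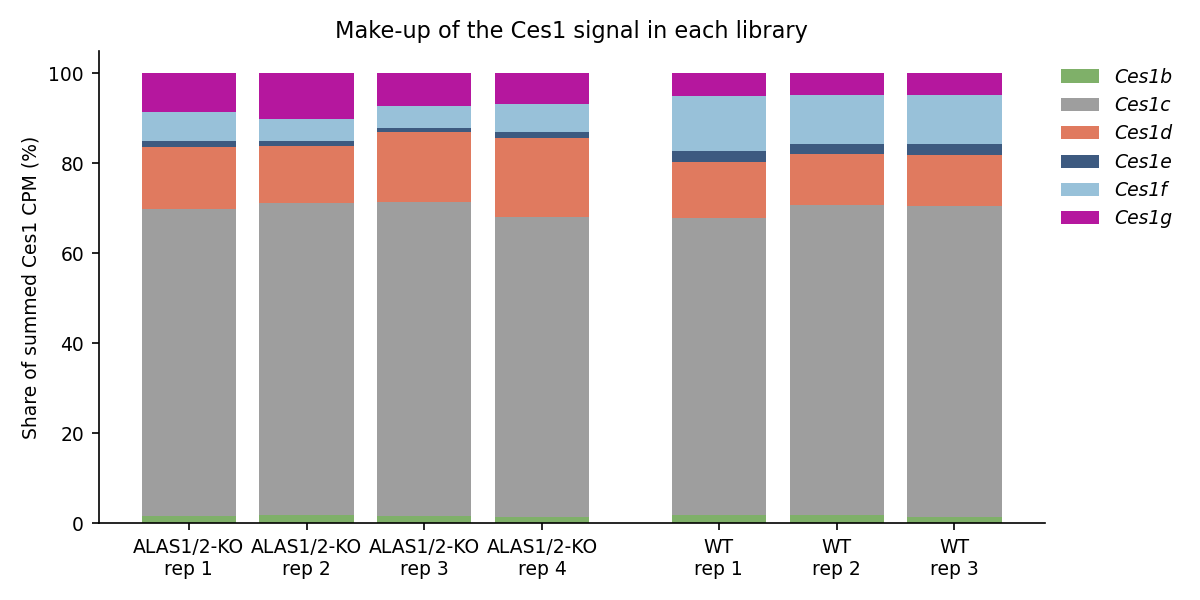
Share of the summed Ces1 CPM (%) held by each member in the 4 ALAS1/2-KO libraries (left) and the 3 WT libraries (right). Ces1c holds 66 to 69.9% in every library, and Ces1f holds 4.79 to 6.39% in ALAS1/2-KO libraries and 10.8 to 12.3% in WT libraries.

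Per kb of transcript, the order of the members differed between the groups. In ALAS1/2-KO it ran from Ces1c at 2279 ± 217 CPM per kb to Ces1d at 455 ± 102, Ces1g at 208 ± 20.6, Ces1f at 176 ± 27.2, Ces1b at 48.7 ± 3.72 and Ces1e at 32.0 ± 5.98 CPM per kb. In WT it ran from Ces1c at 1532 ± 127 CPM per kb to Ces1f at 242 ± 3.5, Ces1d at 240 ± 2.98, Ces1g at 84.3 ± 2.42, Ces1e at 46.9 ± 2.65 and Ces1b at 34.7 ± 3.6 CPM per kb. Neighbours within their spread were Ces1g and Ces1f in ALAS1/2-KO, and Ces1f and Ces1d in WT.

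Members with like sequence did not always have like profiles. Profiles were compared as the mean absolute difference, over the 7 libraries, of log2 values centred on each gene's own mean. The closest pair was Ces1e and Ces1f, at 0.0705, whose coding sequences share 78.6% of bases. Ces1b and Ces1c, whose coding sequences share 88.8% of bases and whose promoter windows hold the common blocks shown above, were next at 0.135. Ces1d and Ces1f had no window to compare, and whether upstream sequence bears on the profiles was not tested. The farthest pair, Ces1e and Ces1g, differed by 0.915 with a coding identity of 77.6%. Ces1d and Ces1e, at 79.6% identity and side by side on the chromosome, differed by 0.718 in profile.

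**Figure D4:**
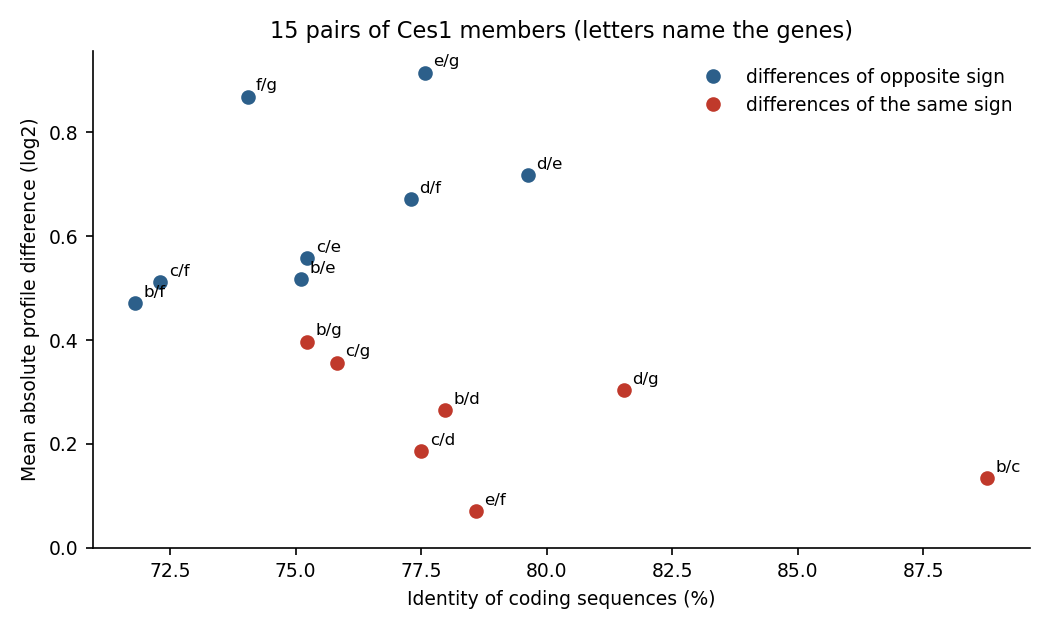
Mean absolute difference between the log2 profiles of 2 members (7 libraries) against the identity of their coding sequences (%), for all 15 pairs, coloured by whether their ALAS1/2-KO minus WT differences have the same sign. The pairs share genes and libraries, the distance largely restates the ALAS1/2-KO minus WT differences, and the pairs are shown as a description. The e/f pair lies lowest at 0.0705 and the b/c pair is the most alike in sequence at 88.8%.

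Close sequence also limits the counting. The sources used here do not say how reads that fit several genes were handled. Of all stretches of 50 bases in the reference transcript, 11.6% in Ces1b and 17% in Ces1c also occur exactly in a transcript of another gene, against 1.28% in Ces1d, 3.21% in Ces1e, 1.6% in Ces1f and 1.67% in Ces1g. With 100 bases these shares were 1.29% in Ces1b and 1.39% in Ces1c, each with the other, and 0 of all stretches in Ces1d, Ces1e, Ces1f and Ces1g. With 75 bases, 1.05% of stretches in Ces1e also occur in Ces1c. Ces1b had 1355 to 3340 reads per library and Ces1c 48523 to 152744. The values of both are uncertain to the extent that reads fitting both were split or misassigned between them. Ces1b, with far fewer reads, is the more exposed.

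A transcript inside the array also differed. Gm45909 is annotated as a single exon of 1031 bases to be experimentally verified, on the minus strand within intron 3 of Ces1d (93190328 to 93191358), and shares no base with a Ces1d exon. It had 3.84, 2.74, 4.13 and 5.05 CPM in ALAS1/2-KO replicates 1 to 4, from 89 to 153 reads, and 1.10, 1.03 and 0.791 CPM in WT replicates 1 to 3, from 21 to 27 reads. It rose 3.79-fold (log2 fold change 1.92, SE 0.26, limma adjusted p = 0.00798). Without WT replicate 2 the adjusted p was 0.0547. In ALAS1/2-KO its lowest and highest libraries, replicates 2 and 4, were also those of Ces1d. In WT its order was the reverse of that of Ces1d, whose WT libraries were almost level. Intronic reads of Ces1d cannot be told apart from Gm45909. The genes named here on either side of the analysed members, from which distances were measured, did not pass. Lpcat2, 137 kb away, had a log2 difference of -0.62 (SE 0.55) and Mmp2, 203 kb away, one of -1.36 (SE 0.34, limma adjusted p = 0.0607) at 0.726 CPM in ALAS1/2-KO and 2 CPM in WT. Fto, 1388 kb away, stood at 0.08. On the other side Nudt21 and Ogfod1, 678 and 699.9 kb away, stood at -0.08 and 0.19 on the same log2 scale. The limma adjusted p of Lpcat2, Fto, Nudt21 and Ogfod1 ran from 0.455 to 0.753.

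Of 13 other carboxylesterases on the list, 6 had a row, and limma called 3 higher and 0 lower, against 2.91% of all genes called higher and 2.19% called lower. Their median log2 difference was 0.73, against -0.02 over all genes. Ces2a, of the Ces2 subfamily, stood at 695 ± 70.8 CPM in ALAS1/2-KO and 202 ± 41.2 CPM in WT (log2 fold change 1.79, SE 0.15, limma adjusted p = 0.00119). Ces2g rose to 72 CPM in ALAS1/2-KO, against 37.9 CPM in WT (limma adjusted p = 0.00503), and Ces2e to 337 CPM in ALAS1/2-KO, against 232 CPM in WT (limma adjusted p = 0.0218). Ces3a stood at 953 ± 59.8 CPM in ALAS1/2-KO and 1036 ± 53 CPM in WT (log2 difference -0.12, SE 0.10, limma adjusted p = 0.5). Ces2a was called in all 7 leave-one-out fits. Ces2g did not pass once WT replicate 2 was left out (limma adjusted p = 0.0517). Ces2e did not pass with any of WT replicates 1 to 3 left out (limma adjusted p = 0.0658, 0.115 and 0.0501), nor without ALAS1/2-KO replicate 4 (0.0555).

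**Figure D5:**
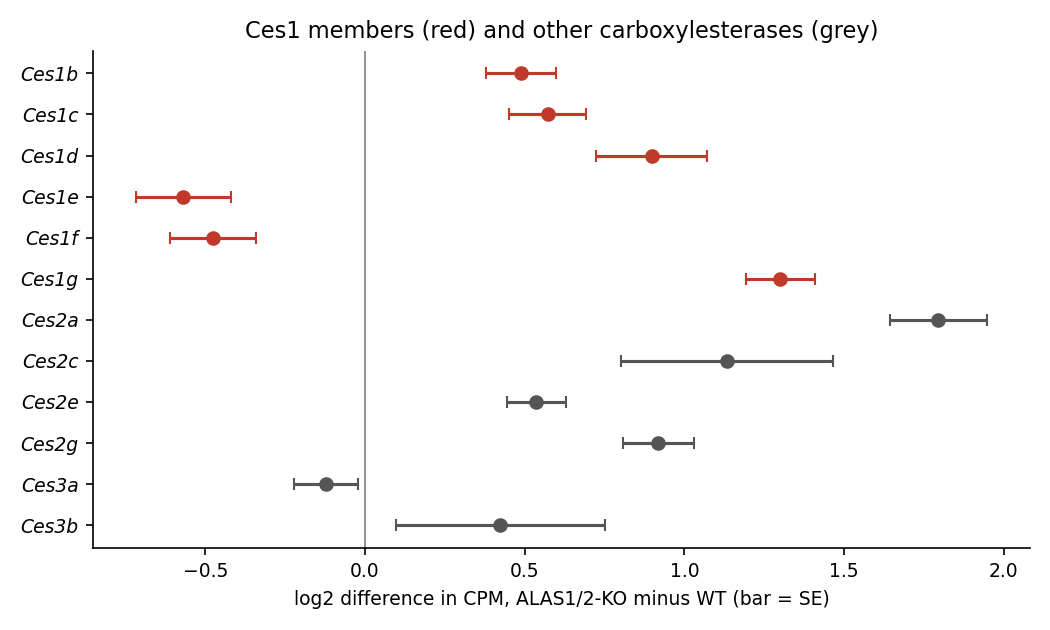
Log2 difference in CPM (ALAS1/2-KO minus WT, bar = SE) of the 6 Ces1 members (red) and the 6 other listed carboxylesterases (grey). Ces1e, Ces1f and Ces3a lie below zero, at -0.57, -0.47 and -0.12, and Ces2a lies highest at 1.79.

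Genes of the pathways in which Ces1 enzymes act were counted beside all genes tested, of which 2.91% were called higher and 2.19% lower, with a median log2 difference of -0.02. The medians were 0.12 for triglyceride lipases and droplet proteins, 0.25 for lipoprotein assembly, 0.33 for cholesteryl ester turnover and 0.04 for retinoid genes. Of 17 listed triglyceride lipases and lipid droplet proteins, 1 rose and 0 fell. It was Lipc, hepatic lipase, at 194 ± 14.6 CPM in ALAS1/2-KO and 115 ± 6.52 CPM in WT (log2 fold change 0.76, limma adjusted p = 0.00754). Of 13 lipoprotein assembly genes, 1 rose and 0 fell, namely Tm6sf2, which acts in lipid loading of lipoproteins, at 44.8 CPM in ALAS1/2-KO and 27.4 CPM in WT (limma adjusted p = 0.0218). Of 13 genes of cholesteryl ester turnover and sterol transport, 3 rose and 0 fell. These were Npc1, a lysosomal cholesterol transporter (log2 fold change 0.60, limma adjusted p = 0.0179), and Abcg8 and Abcg5, which pair as the biliary sterol exporter (0.49 and 0.54, limma adjusted p = 0.0281 and 0.0344). Of 15 retinoid genes, Rdh16, a retinol dehydrogenase, rose to 66.3 CPM in ALAS1/2-KO, against 28.8 CPM in WT (limma adjusted p = 0.00154). Aldh1a1, which makes retinoic acid, fell to 191 CPM in ALAS1/2-KO, against 368 CPM in WT (limma adjusted p = 0.0381).

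Among 17 other ester, amide and epoxide hydrolases, 1 rose and 1 fell, against 2.91% of all genes called higher and 2.19% called lower. Their median log2 difference was 0.06. Ephx1, microsomal epoxide hydrolase, stood at 448 ± 75.8 CPM in ALAS1/2-KO and 174 ± 33.5 CPM in WT (log2 fold change 1.37, limma adjusted p = 0.00551). Bche, the butyrylcholinesterase of plasma, stood at 61.9 ± 16.8 CPM in ALAS1/2-KO and 120 ± 0.948 CPM in WT (log2 fold change -0.99, limma adjusted p = 0.0303). Of 20 liver transcription regulators, 3 rose and 1 fell, beside the same shares of all genes, with a median of 0.17. Ppara, the fatty acid receptor, Mlxipl, the carbohydrate response factor, and Nfe2l2, the antioxidant response factor, had log2 fold changes of 0.68, 0.61 and 0.51 (limma adjusted p = 0.0269, 0.0341 and 0.0344). Stat5b, a growth hormone signal transducer chosen after its values were seen, stood at 29.4 CPM in ALAS1/2-KO and 44.1 CPM in WT (limma adjusted p = 0.0458). Of the 3 listed partners of retention in the endoplasmic reticulum, limma called 0. The smallest unadjusted p was 0.455, for Gusb, and voom on recovered reads also called 0. The retention receptors Kdelr1 and Kdelr2 had log2 differences of -0.06 and 0.01.

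Among these pathway genes Rdh16 alone was called in all 7 leave-one-out fits. Lipc and Ephx1 did not pass with WT replicate 2 left out (limma adjusted p = 0.0517 for both), and Npc1 with WT replicate 2 or ALAS1/2-KO replicate 4 left out (0.115 and 0.0513). No regulator was called lower, Stat5b included, once ALAS1/2-KO replicate 3 or 4 or any WT library was left out. Tm6sf2 and Ppara passed in 3 of the 7 fits, failing without any WT library or ALAS1/2-KO replicate 4 (0.0555 to 0.116 and 0.0516 to 0.126). Nfe2l2 passed in 2 and Abcg5, Abcg8, Aldh1a1, Bche and Mlxipl in 1, which for those 5 was the fit without ALAS1/2-KO replicate 1. Without WT replicate 2 their limma adjusted p was 0.115, 0.146, 0.134, 0.185, 0.141 and 0.164 in that order.

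Of 8783 genes averaging 5 CPM or more, those nearest in profile to each member were named by the distance used above. That distance carries the group difference, so the genes named differed between the groups much as the member did, which adds no separate evidence. Nearest to Ces1g were Slc44a3 (0.0787), a choline transporter-like protein, Serpina6 (0.0977), corticosteroid-binding globulin, and Fmo4 (0.125), a flavin monooxygenase. Nearest to Ces1c were Maco1 (0.0505), Abcg5 (0.0644) and Gpam (0.0657), the mitochondrial glycerol-3-phosphate acyltransferase. Near to Ces1b were Fastk (0.0588) and Hlf (0.0593), a transcription factor. Ces1d had less close neighbours than Ces1b and Ces1c, namely Fam102a (0.0876), Pisd-ps1 (0.0892) and Abhd15 (0.101). Zfp750 was on the lists of both Ces1e (0.071) and Ces1f (0.0539), beside 1700017B05Rik (0.0627) and Dhrs7 (0.0778) for Ces1e and Alg14 (0.0473) and Abcg2 (0.0513), an efflux transporter, for Ces1f. The Ces1e and Ces1f distance of 0.0705 was itself below that of the second gene on the Ces1e list and above that of the first. It was also above those of all 3 genes on the Ces1f list.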

How the data were processed

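The authors deposited log2 CPM values for 12151 genes in 7 libraries, with a small prior added. Per the submitters' processing notes, reads were trimmed with cutadapt and aligned with HISAT2 to mm10, and per the labels' protocols libraries came from a TruSeq kit. The sources used here do not give their versions, the read counter, its annotation, or how it treated strand and reads that fit several genes. CPM was taken as 2 to the power of each value minus the common floor of 0.0676, and 100% of values were then whole reads within 0.01, each worth 0.0293 to 0.0522 CPM. The table holds no gene that stayed under 0.5 CPM in more than 4 libraries.

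The 12105 genes that reached 1 CPM in 3 or more libraries were fitted with limma 3.58.1 in R 4.3.3, with trend and robust moderation, two-sided, ALAS1/2-KO minus WT. The procedure was also run on simulated data whose changes were larger than most member differences, so that run does not bear on calls of that size. Fold changes include the prior, which understates low genes. The labels do not say whether replicates came from different animals, and p-values cover only library-to-library spread, which may be technical. Fewer cells of a type and less RNA per cell cannot be told apart. Alternatives covered the pseudocount, filters, scaling, limma settings, limma voom on recovered reads, the replicate number as a block, and each library left out in turn.

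The members and gene lists were chosen with earlier results of these data known. Named genes are the members, Alas1 and Alas2, up to 3 called genes of each list by smallest p or else the 2 most abundant, listed genes inside the array and 3 on each side, and the 3 genes nearest each member in profile, of which some are not reported here. Gusb and the uncalled other carboxylesterases were added afterwards. Annotation and transcripts are GENCODE M21 (mm10), promoters RefSeq GRCm38.p6, and sequences were aligned globally with Biopython 1.88.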

Additional observations from a re-analysis of the deposited data

Results flagged for a closer look

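In groups of 4 libraries, 49 sets of values were examined for a library far from the others, and chance flags about 1 in 20. The gap ratio is the distance of the extreme library from its nearest neighbour over the whole range. ALAS1/2-KO replicate 1 was the low library for Ces2a, at 589 CPM against 728 to 733 CPM in the other ALAS1/2-KO libraries (gap ratio 0.969). It was also the low library for Mmp2, at 0.484 CPM against 0.795 to 0.825 CPM (0.929). ALAS1/2-KO replicate 3 was the low library for Ogfod1, at 6.11 CPM against 7.5 to 7.75 CPM (0.861). No Ces1 member was among them.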

How the results depend on the processing

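All 6 members kept the sign of their log2 difference under each of the 17 alternatives. With CPM rescaled to listed reads the differences were 0.82 for Ces1b, 0.91 for Ces1c, 1.23 for Ces1d, -0.23 for Ces1e, -0.14 for Ces1f and 1.63 for Ces1g, the cluster sum was 1.85-fold instead of 1.48-fold, and higher calls among all genes numbered 2533 instead of 352. This scaling moved the median of all genes from -0.02 to 0.32, and the share of higher calls with it. With quantile normalization Ces1g stood at 1.16, Ces1b and Ces1g were called higher and Ces1f was called lower. Calls among all genes were then 428 higher and 363 lower. Scaling to nuclear genes outside the 20 most abundant left Ces1d and Ces1g called, and gave 238 higher and 324 lower calls among all genes. Calls among all genes were 184 higher and 171 lower with limma without trend or robust moderation, where 1 of the 6 members was called, and 1030 higher and 971 lower with array weights, where all 6 were called; the cause was not tested. Without 1 library, the differences ran from 0.40 to 0.55 for Ces1b, 0.50 to 0.61 for Ces1c, 0.78 to 1.01 for Ces1d, -0.68 to -0.46 for Ces1e, -0.56 to -0.38 for Ces1f and 1.24 to 1.35 for Ces1g, the cluster sum from 1.43 to 1.52-fold, and calls among all genes from 37 to 387 higher and from 19 to 415 lower, both lowest without WT replicate 2.

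The replicate block gave 33 higher and 39 lower calls among all genes and 1 member called (Ces1g, log2 difference 1.35). The labels do not say whether the numbers pair the libraries. Deviations of same-numbered libraries correlated at -0.03, 0.05 and 0.18 across genes, and those of differently numbered libraries at -0.334 to 0.362. With so few libraries these values can neither show nor exclude a shared litter, batch or day.

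Counting error is small for the members, with at least 1355 reads in each library. Spread between libraries and the choice of scaling limit the comparison, as does shared sequence, chiefly for Ces1b and Ces1c.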
